A study of Mus musculus with 48 samples.

Results

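The 10 genes described here are linked by what is known of them to injured hepatocytes and to the transcriptional coactivator YAP. They are *Klf6*, *Tnfrsf12a*, *Ankrd1*, *Amotl2*, *Ajuba*, *Lats2*, *Tead1*, *Yap1*, *Wwtr1* and *Tmsb4x*, and all 10 were found among the 46517 genes counted. They were chosen by their measured levels and differences across the same samples, so their values are a description, and no p-value is given for any of them. RNA was sequenced from 16 samples in 5 groups, each sample as 3 technical libraries that were summed. The groups were 3 livers of donor mice, 3 preparations of primary hepatocytes isolated from donor livers, 2 samples of spheroids formed from such hepatocytes and kept in vitro, 5 explants and 3 irises that carried no graft. An explant is the engrafted spheroids together with the surrounding iris, dissected by hand 2 months after the spheroids were transplanted (post-tx) to the anterior eye chamber (ACE) of a recipient mouse.

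All groups are labelled as wild-type albino mice of strain C57BL/6N, while the methods of the study list an albino B6/J strain, and animals were adults of 3 months or older and of both sexes. Hepatocytes were obtained by collagenase perfusion and a density gradient, so the preparations are enriched and not pure. The day of culture at which the in vitro spheroids were taken is not given in the sources used here. The age behind each sample and the number of animals or eyes behind a sample are not given either. Differences between samples of a group may therefore be technical in part, and p-values measure only the spread between these samples.

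YAP (*Yap1*) and its paralog TAZ (*Wwtr1*) are coactivators that enter the nucleus and bind TEAD factors such as TEAD1 when the Hippo kinases are quiet. The kinases LATS1 and LATS2 phosphorylate them and keep them in the cytoplasm, and the output rises when cells spread, lose contacts or build actin stress fibres. Several targets, *Lats2*, *Amotl2* and *Ajuba* among them, encode regulators of the pathway itself. In the adult liver YAP is low in hepatocytes and higher in bile duct cells, and it is known to rise in hepatocytes during injury and regeneration. KLF6 is an early zinc-finger factor of liver injury, TNFRSF12A (Fn14) is the receptor of the cytokine TWEAK on injured and regenerating tissue, and thymosin beta 4 (*Tmsb4x*) binds actin monomers.

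Total counts per sample ran from 2718518 to 6789648, with 5449589 or more in each explant and 2718518 to 3573075 in the hepatocyte preparations. Intervals and floors given below cover counting error only. Levels are in TPM, which is the count divided by gene length and scaled to the same sum in every sample, so that levels of different genes can be compared. The 10 hepatocyte markers were all present in every group, summing to 14339 to 15273 TPM in livers, 14754 to 18056 in hepatocyte preparations, 11293 to 12575 in spheroids, 4933 to 7115 in explants and 1588 to 1870 in irises. The 10 iris markers summed to 8923 to 9309 TPM in irises, 6417 to 8096 in explants and 437 to 595 in the other 3 groups. Irises thus held hepatocyte markers, with *Alb* at 753, 861 and 822 TPM. Livers held the pigment gene *Dct* at 208, 220 and 205 TPM. Where this RNA came from was not tested. Low levels of a member in a group, and the iris levels used for subtraction below, may hold such RNA too. In bulk RNA, fewer cells of a type and less RNA per cell cannot be told apart.

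Samples of the livers and of the spheroids differed within their groups in these genes. Liver 1 had the highest level among the 3 livers for 7 of the 10 genes, and its summed stellate and fibroblast markers were at 1539 TPM against 560 and 627 TPM in livers 2 and 3. Its bile duct markers summed to 581 TPM against 346 and 298, its macrophage markers to 801 against 511 and 619, and its mesothelial markers to 76.9 against 14.8 and 43. Spheroid sample 1 was above spheroid sample 2 for 9 of the 10 genes. Its bile duct markers summed to 415 TPM against 115 TPM, of which *Spp1* made up 350 and 92.3 TPM. With 2 samples, neither can be called the one that stands apart. The share of all genes that were highest in liver 1, or higher in spheroid sample 1, was not counted. These differences may therefore not be particular to the 10 genes. The other marker lists of the 2 spheroid samples lay closer, with macrophage markers at 593 and 509 TPM and stellate and fibroblast markers at 341 and 397 TPM. What these markers contribute to the members' levels was not tested.

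Of the 10 genes, 3 had their highest group mean in the spheroids, namely *Klf6*, *Tnfrsf12a* and *Ankrd1*, and the other 7 had it in irises or explants. The hepatocyte preparations had the lowest mean for 8 genes. The exceptions were *Yap1*, lowest in spheroids, and *Tnfrsf12a*, lowest in irises. No gene was highest in livers or in hepatocyte preparations, and irises, which hold no graft, had a higher mean than livers for all of them but *Tnfrsf12a* and *Ankrd1*. The link of these genes to hepatocytes is thus from prior knowledge and not from where their RNA was highest here.

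**Figure D1:**
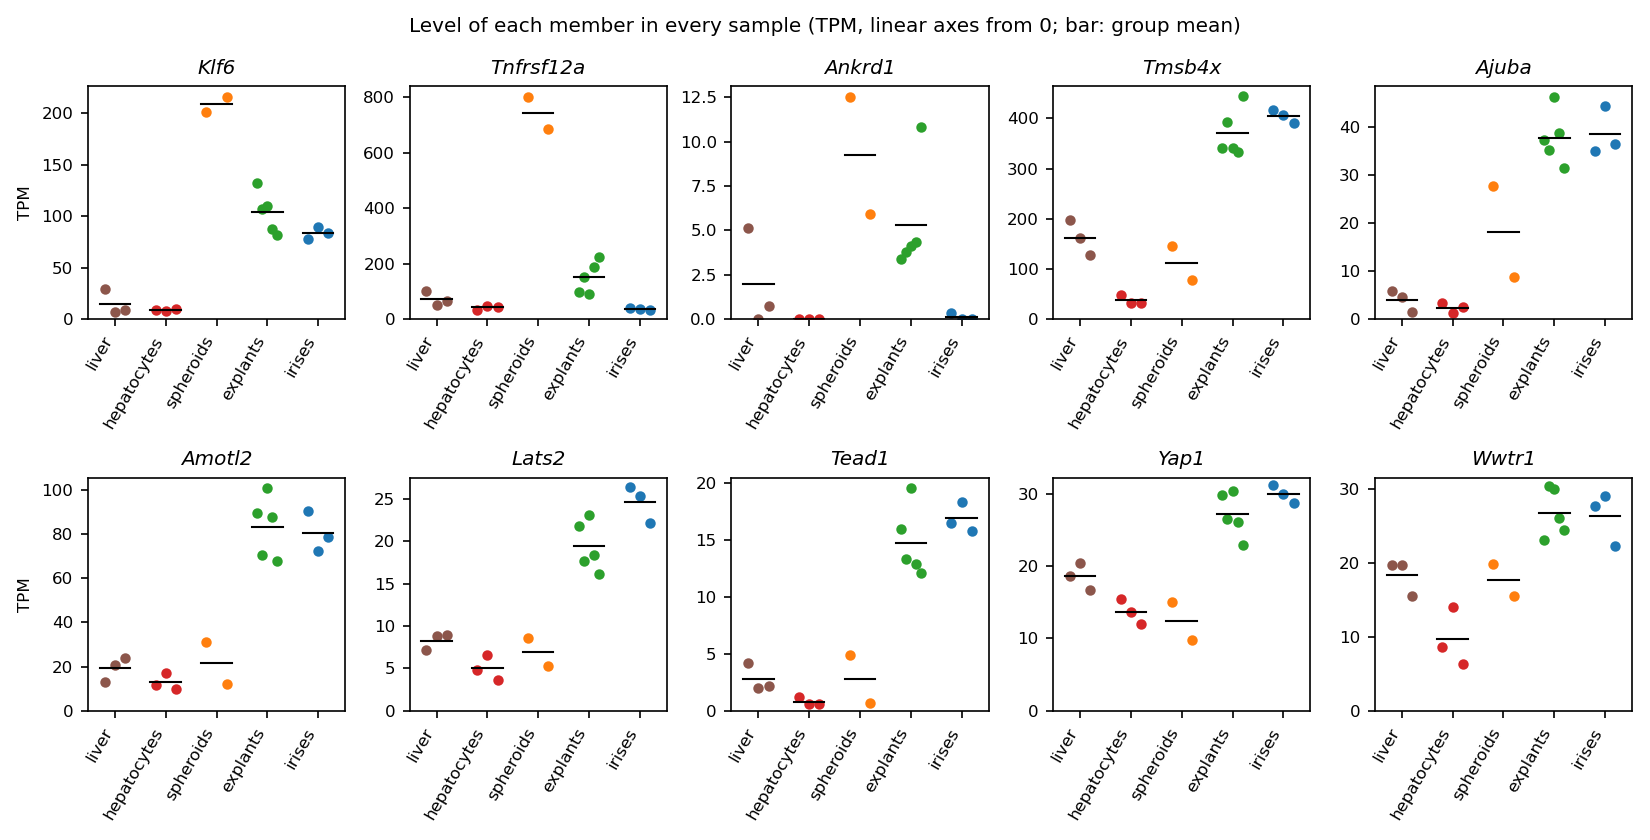
Level of each of the 10 genes in every sample, in TPM on linear axes that start at 0. Each point is a sample of livers (n = 3), hepatocyte preparations (n = 3), spheroids kept in vitro (n = 2), explants (n = 5) or irises (n = 3), and the bar is the group mean. *Klf6* and *Tnfrsf12a* were highest in the spheroids, while the lower row is highest in explants and irises.

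*Klf6* (ENSMUSG00000000078, chromosome 13, 5861489 to 5870393, plus strand, in the coordinates of the count tables, mm10) encodes a zinc-finger transcription factor. Its level was 28.9, 7.34 and 8.60 TPM in the livers and 8.80, 8.10 and 10.2 TPM in the hepatocyte preparations. In the spheroids it was 201 and 216 TPM. In the explants it ranged from 81.4 to 132 TPM with a median of 107, and in the irises from 78.1 to 89.5 TPM. The 2 spheroid samples were above every other sample, the irises were above every liver and preparation, and explants overlapped irises. The mean of the spheroids, 208 TPM ± 10.6 (SD, n = 2), was 23 times that of the preparations, 9.05 TPM ± 1.09 (SD, n = 3). Livers and preparations overlapped, and their edgeR log2 fold change of −0.57 (standard error 0.49) became 0.28 without liver 1.

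*Tnfrsf12a* (ENSMUSG00000023905, chromosome 17, 23675447 to 23677449, minus strand) encodes the receptor of TWEAK. The livers were at 101, 51.2 and 66.4 TPM and the preparations at 34.9, 47.9 and 44.8 TPM, which did not overlap. The spheroids were at 803 and 686 TPM, 17.5 times the mean of the preparations and 10.2 times that of the livers. The explants were at 96.7, 154, 90.2, 189 and 226 TPM for explants 1, 2, 4, 5 and 6, and the irises at 39.3, 38.7 and 34.6 TPM. Every explant was above every iris, and the mean of the explants, 151 TPM ± 58.5 (SD, n = 5), was 4.02 times that of the naive irises, which was 37.5 TPM ± 2.51 (SD, n = 3). The gene was the only one of the 10 with its lowest mean in irises.

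The ligand of this receptor, TWEAK (*Tnfsf12*), was looked up for its role after values were seen. It was at 54.7, 53.0 and 75.3 TPM in irises, 34.4 to 43.5 TPM in explants, 12.2 to 17.5 TPM in livers, 3.56 to 7.39 TPM in preparations and 10 and 9.56 TPM in spheroids. Between spheroids and preparations its log2 difference was 0.60 (standard error 0.45, edgeR adjusted p = 0.355), and between explants and irises it was −0.55 (standard error 0.14, edgeR adjusted p = 0.0353), which is smaller than the limit of 1 used for calls.

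*Ankrd1* (ENSMUSG00000024803, chromosome 19, 36111965 to 36119844, minus strand) encodes an ankyrin repeat protein of the nucleus and the muscle sarcomere and is among the most used reporters of YAP activity. No read was counted for it in the 3 hepatocyte preparations, 0 of 9446341 counts, which allows up to 0.318 CPM (counts scaled to the library total). The spheroids had 29 and 13 counts, or 12.5 and 5.93 TPM. Against the floor of 3 counts over the preparations, its share of counts in spheroids was at least 19.8-fold higher. The livers had 13, 0 and 2 counts, so that 13 of the 15 counts in livers came from liver 1, spread over its technical libraries as 2, 8 and 3. The irises had 1 count in all and the explants 11, 13, 15, 18 and 40, or 3.39 to 10.8 TPM. The share of counts in explants was 46.5 times that in irises, with a 95% exact counting interval from 8.15 to 1856. No explant overlapped an iris. Without liver 1, the log2 fold change of spheroids against livers was 4.24 in place of 2.09 (standard error 0.96), since most of the counts of the livers were then removed.

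*Ajuba* (ENSMUSG00000022178, chromosome 14, 54567469 to 54577661, minus strand) encodes a LIM protein of cell junctions that binds and restrains LATS kinases. It was at 5.77, 4.62 and 1.51 TPM in livers, 3.4, 1.36 and 2.57 TPM in preparations, and 27.6 and 8.73 TPM in spheroids. Explants ranged from 31.4 to 46.2 TPM with a median of 37.3, and irises were at 34.9, 44.2 and 36.5 TPM. Both spheroid samples were above all livers and preparations, but they differed 3.16-fold from each other. The log2 fold change of spheroids against preparations was 2.50 (standard error 0.52), and it was 1.61 without spheroid sample 1.

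To show what the letters near the starts of these genes hold, promoters from RefSeq (GRCm38.p6, from 250 bases before to 50 bases after an annotated start) were matched by symbol for 9 of the 10 genes, all but *Tead1*. The core of the TEAD binding motif, GGAATG, was searched on both strands (CATTCC on the other). It was present in a promoter of 6 of the 9 genes, and 2 genes, *Ankrd1* and *Ajuba*, held it at 2 places. Of all 32851 promoters in the table, 14.7% held it at least once and 1.36% at 2 or more places. None of the 9 genes held the AP-1 motif TGANTCA (7.81% of all promoters) or a CArG box, the motif of serum response factor (1.63% of all promoters). A match is a description of the letters and not a binding site. The 250 bases before the start are given for the 2 genes with repeated matches and for *Klf6* and *Tnfrsf12a*, which had the highest levels of the 10 in spheroids and no match. TEAD core matches are in capitals, and each sequence is written 5′ to 3′ on the strand of its gene.
Ankrd1, chr19:36119845-36120094, minus strand: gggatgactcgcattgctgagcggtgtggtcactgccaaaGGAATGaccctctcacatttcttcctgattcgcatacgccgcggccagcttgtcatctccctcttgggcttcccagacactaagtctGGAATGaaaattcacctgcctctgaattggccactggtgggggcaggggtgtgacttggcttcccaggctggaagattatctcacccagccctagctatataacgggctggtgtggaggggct
Ajuba, chr14:54577662-54577911, minus strand: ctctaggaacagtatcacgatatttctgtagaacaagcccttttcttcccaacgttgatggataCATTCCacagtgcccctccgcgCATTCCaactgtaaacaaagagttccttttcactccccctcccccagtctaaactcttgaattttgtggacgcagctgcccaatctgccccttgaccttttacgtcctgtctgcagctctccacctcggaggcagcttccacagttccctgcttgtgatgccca
Klf6, chr13:5861239-5861488, plus strand: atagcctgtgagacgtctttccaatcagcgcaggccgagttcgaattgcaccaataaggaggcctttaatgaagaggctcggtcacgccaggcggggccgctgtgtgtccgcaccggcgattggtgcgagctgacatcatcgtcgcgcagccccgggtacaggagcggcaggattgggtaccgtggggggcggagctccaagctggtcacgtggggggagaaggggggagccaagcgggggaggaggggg
Tnfrsf12a, chr17:23677450-23677699, minus strand: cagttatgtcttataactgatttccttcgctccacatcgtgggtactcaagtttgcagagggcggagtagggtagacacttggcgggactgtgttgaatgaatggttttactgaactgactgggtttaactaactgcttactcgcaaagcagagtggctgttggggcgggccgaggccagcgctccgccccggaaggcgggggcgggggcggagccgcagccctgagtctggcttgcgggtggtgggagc

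In *Ankrd1* the 2 matches began 210 and 123 bases before the start, and in *Ajuba* 186 and 164 bases before it. *Amotl2* held 1 match at 65 bases before its start, *Yap1* 1 at 141, and *Wwtr1* 1 that fell 136 or 170 bases before, since it has 2 annotated starts. In *Lats2* a match lay just after 1 of its 2 starts, at base 5. *Tmsb4x*, like *Klf6* and *Tnfrsf12a*, held none. Of the 6 genes with a match, *Ankrd1*, *Ajuba* and *Wwtr1* were higher in both spheroid samples than in every preparation. *Yap1*, *Lats2* and *Amotl2* overlapped between these groups. *Tmsb4x*, *Klf6* and *Tnfrsf12a*, which held no match, were all higher in both spheroid samples too. The genes were chosen for such differences, and a link between matches and levels was not tested. The share of all genes without overlap between these groups was not counted.

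*Amotl2* (ENSMUSG00000032531, chromosome 9, 102716672 to 102733418, plus strand) encodes an angiomotin that holds YAP at junctions and in the cytoplasm. It was at 13.1, 20.8 and 23.9 TPM in livers, 11.8, 16.9 and 9.72 TPM in preparations and 31.1 and 11.9 TPM in spheroids. Explants ranged from 67.7 to 101 TPM with a median of 87.7, and irises from 72.3 to 90.2 TPM. The 3 groups of liver cells overlapped, and all of them were below every explant and iris. Between spheroids and preparations the log2 fold change was 0.38 (standard error 0.36), and without spheroid sample 1 it was −0.32. In liver 1 it was 0.585 times the mean of the other livers, unlike most of the 10 genes.

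*Lats2* (ENSMUSG00000021959, chromosome 14, 57642077 to 57758388, minus strand) encodes the kinase that inactivates YAP and TAZ. It was at 7.15, 8.77 and 8.94 TPM in livers, 4.79, 6.64 and 3.69 TPM in preparations, and 8.54 and 5.29 TPM in spheroids. Explants ranged from 16.2 to 23.1 TPM and irises from 22.2 to 26.4 TPM. Every preparation was below every liver, with a log2 fold change of −0.58 (standard error 0.25), and spheroids overlapped both groups. Its exons share 332 bases, 4.55% of its length, with *Xpo4* on the same strand, and the authors' counting gave a read over both genes to each of them.

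The transcription factor gene *Tead1* (ENSMUSG00000055320, chromosome 7, 112679318 to 112906807, plus strand) encodes a DNA-binding partner of YAP and TAZ, and in TPM it was below both coactivator genes in every sample. Livers were at 4.15, 2.00 and 2.17 TPM and preparations at 1.18, 0.636 and 0.560 TPM, which did not overlap. The spheroids were at 4.87 and 0.716 TPM, a 6.80-fold difference between the 2 samples, so that 1 lay above every liver and the other within the preparations. Explants ranged from 12.1 to 19.5 TPM and irises from 15.8 to 18.3 TPM. The log2 fold change of spheroids against preparations, 1.4 (standard error 0.69), was −0.37 without spheroid sample 1.

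The coactivator genes differed by less than 1 on the log2 scale in all 4 comparisons. *Yap1* (ENSMUSG00000053110, chromosome 9, 7931999 to 8004596, minus strand) was at 18.6, 20.5 and 16.7 TPM in livers, 15.4, 13.7 and 12 TPM in preparations, and 15.1 and 9.74 TPM in spheroids. Explants ranged from 23 to 30.4 TPM and irises from 28.7 to 31.2 TPM. Preparations and spheroids were both below every liver and overlapped each other. The log2 fold change of spheroids was −0.72 (standard error 0.21) against livers and −0.49 (standard error 0.19) against preparations. Of its exon length, 116 bases or 1.25% overlap the antisense gene *Gm20416*, which had 43 counts in all samples against 5458 for *Yap1*.

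*Wwtr1* (ENSMUSG00000027803, chromosome 3, 57455649 to 57575910, minus strand), the gene of TAZ, was at 19.8, 19.7 and 15.6 TPM in livers, 8.64, 14 and 6.40 TPM in preparations, and 19.9 and 15.5 TPM in spheroids. Explants ranged from 23.2 to 30.4 TPM and irises from 22.3 to 29.1 TPM. Preparations were below every liver and every spheroid sample, and spheroids overlapped livers. On the TPM scale, which is per length, the ratio of *Yap1* to *Wwtr1* was 1.01 ± 0.0684 (SD, n = 3) in livers, 1.55 ± 0.494 (SD, n = 3) in preparations, 0.694 ± 0.0929 (SD, n = 2) in spheroids, 1.02 ± 0.158 (SD, n = 5) in explants. In irises it was 1.15 ± 0.130 (SD, n = 3). Both spheroid samples had less *Yap1* than *Wwtr1*, and their ratios, 0.628 and 0.760, were below those of every liver, preparation, explant and iris. The ratio of *Tead1* to *Yap1* was 0.564 ± 0.0433 (SD, n = 3) in irises and 0.0565 ± 0.0175 (SD, n = 3) in preparations.

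*Tmsb4x* (ENSMUSG00000049775, chromosome X, 167207093 to 167209315, minus strand) had the highest level of the 10 in irises. It was at 198, 161 and 129 TPM in livers, 48, 32.5 and 32.1 TPM in preparations and 146 and 77.5 TPM in spheroids. Explants were at 342, 393, 342, 334 and 444 TPM for explants 1, 2, 4, 5 and 6, and irises at 416, 407 and 390 TPM. Every liver and both spheroid samples were above every preparation (means 163, 112 and 37.5 TPM), spheroids overlapped livers, and explants overlapped irises. The log2 fold change of preparations against livers was −1.97 (standard error 0.21), and those of spheroids were 1.22 (standard error 0.27) against preparations and −0.68 (standard error 0.26) against livers.

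The 4 comparisons were then set side by side, although they are not independent, since livers, preparations and spheroids each enter 2 of them. A gene was called where the edgeR adjusted p was under 0.05 over all genes tested and the absolute log2 fold change was over 1. Between preparations and livers, 9 members were tested, and 0 met the call rule upwards (0.409% of 12236 genes did) and 1, *Tmsb4x*, downwards (2.31% of genes). Between spheroids and preparations, 5 of 10 met it upwards (8.13% of 12247 genes), namely *Klf6*, *Tnfrsf12a*, *Ankrd1*, *Ajuba* and *Tmsb4x*, and 0 downwards (9.11%). Between spheroids and livers, 3 of 10 met it upwards (8.24% of 12959 genes), *Klf6*, *Tnfrsf12a* and *Ajuba*, and 0 downwards (11%). Between explants and irises, 2 of 10 met it upwards (6.16% of 16764 genes), *Tnfrsf12a* and *Ankrd1*, and 0 downwards (0.316%). These counts describe genes that were chosen for such differences and are read no further.

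**Figure D2:**
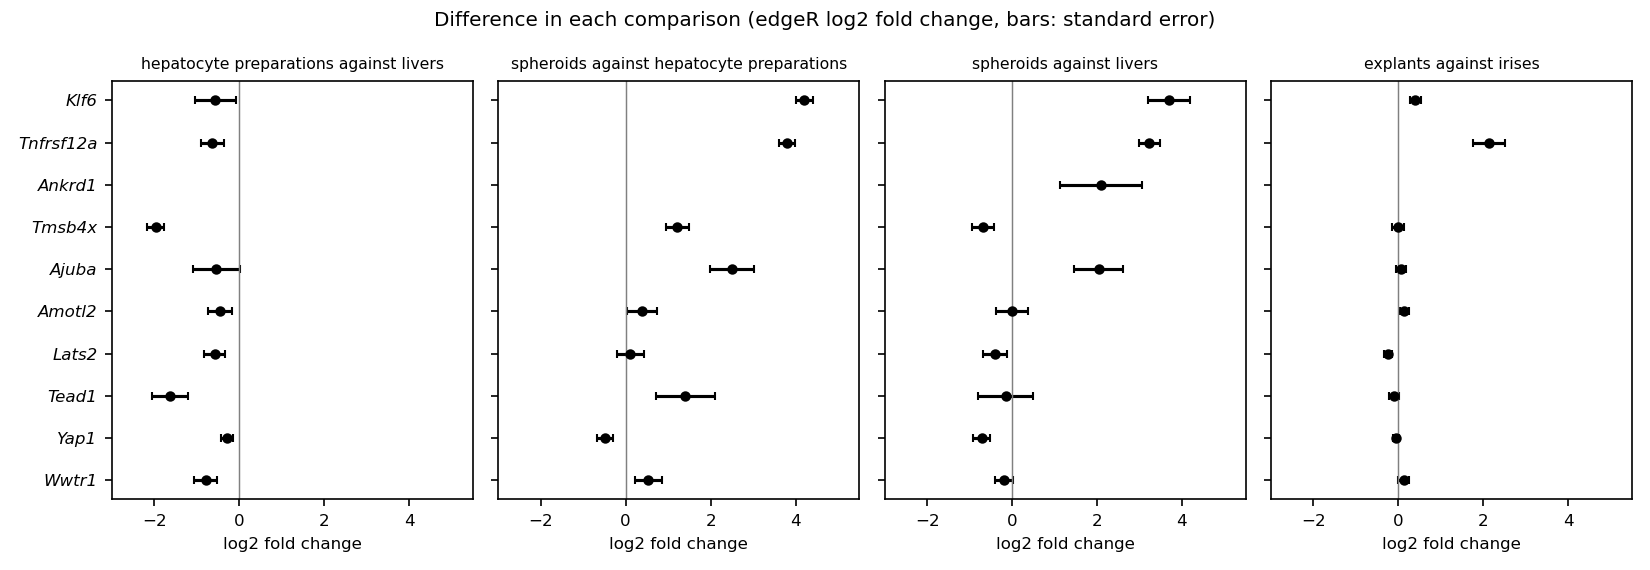
edgeR log2 fold change of each gene in the 4 comparisons, with bars for the standard error and a line at 0. *Ankrd1* is shown only for spheroids against livers, because 1 group of the other comparisons had at most 1 count of it. *Klf6*, at 4.20 against preparations and 3.70 against livers, and *Tnfrsf12a*, at 3.8 and 3.23, lie farthest to the right, and *Lats2*, *Yap1*, *Wwtr1* and *Amotl2* stay within 1 of 0 in every panel.

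An explant holds iris as well as graft, so its level mixes the tissues. By the study's formula, the mean level of the irises times the iris share is subtracted from an explant, and the rest is divided by 1 minus that share. Solved from the deposited tables, the iris shares of explants 1, 2, 4, 5 and 6 were 82%, 68%, 81%, 72% and 59%. After subtraction no member was below 0 in any explant. In all 5 explants, 5 members were above every liver, namely *Klf6*, *Tnfrsf12a*, *Ankrd1*, *Amotl2* and *Ajuba*. How many of all genes were so was not counted. For *Klf6*, *Amotl2* and *Ajuba*, explants as measured overlapped irises, and every iris was above every liver. An explant at the iris mean stays there after subtraction, whatever its share. Which part of an explant held the RNA of *Klf6*, *Amotl2* and *Ajuba* was not tested. *Tnfrsf12a* was at 366, 400, 315, 577 and 497 TPM, 431 ± 105 (SD, n = 5), between the livers (mean 73.0 TPM) and the spheroids (mean 744 TPM), and no explant reached the spheroids. *Klf6* was at 351, 157, 225, 98.7 and 78.2 TPM, 182 ± 110 (SD, n = 5), around the 208 TPM of the spheroids, with its highest values in explants 1 and 4, which also had the largest iris shares.

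*Ankrd1* after subtraction was at 18.3, 11.5, 21.3, 15.3 and 26.3 TPM, 18.6 ± 5.64 (SD, n = 5), and 4 of 5 explants were above both spheroid samples. *Amotl2* was at 106 ± 59.7 TPM and *Ajuba* at 39.7 ± 22.9 TPM (SD, n = 5), against 21.5 and 18.1 TPM on average in the spheroids, and *Amotl2* was the only member with all 5 explants above the spheroids. *Lats2* was at 7.04 ± 5.84, *Yap1* at 22 ± 8.38 and *Wwtr1* at 28 ± 14.5 TPM (SD, n = 5) against 8.29, 18.6 and 18.4 TPM in livers. The explant mean of *Wwtr1* was 26.8 TPM as measured, so subtraction did not bring it closer to livers. Its subtracted level was above every liver in 4 of 5 explants, and those of *Lats2* and *Yap1* were so in 2 of 5. *Tead1* was at 11.2 ± 11.4 and *Tmsb4x* at 231 ± 195 TPM (SD, n = 5), a spread close to or above the mean. The subtracted *Tead1* level was above every liver in 4 of 5 explants and above every preparation in 5 of 5. That of *Tmsb4x* was so in 2 of 5 and 5 of 5. Like *Klf6*, the genes *Amotl2*, *Lats2*, *Tead1* and *Yap1* had their highest subtracted values in explants 1 and 4, and *Tmsb4x* had its lowest there. Macrophage markers summed to 668 to 2146 TPM in the explants as measured, against 518 to 539 TPM in irises and 511 to 801 TPM in livers. Explants 2 and 6 had the highest sums (1685 and 2146 TPM) and also the highest levels of *Tmsb4x*. The part of macrophages in these values was not tested.

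**Figure D3:**
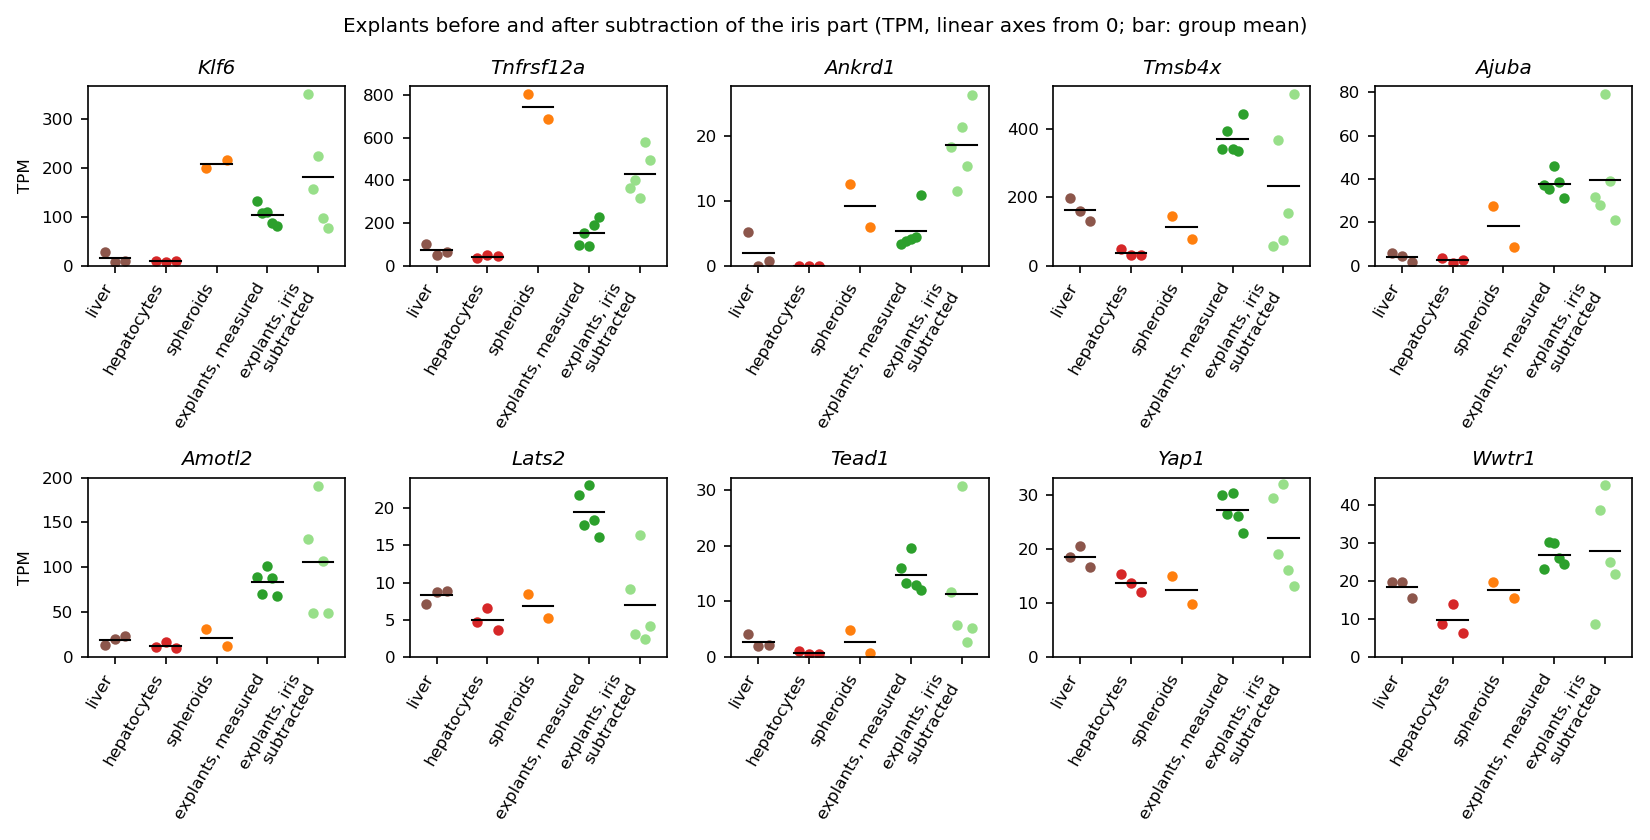
TPM of each gene in livers (n = 3), hepatocyte preparations (n = 3), spheroids (n = 2) and explants (n = 5), the explants as measured and after subtraction of the iris part, on linear axes from 0 with bars for the group mean. Subtraction raised *Tnfrsf12a* from a mean of 151 to 431 TPM and *Ankrd1* from 5.30 to 18.6 TPM, and widened the spread (SD) among explants for every gene.

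Other genes of the pathways were taken from 4 lists that leave out the members, namely 19 targets of YAP and TAZ, 26 genes of the Hippo pathway, 20 genes of actin and serum response factor, and 30 genes known to rise in injured or regenerating liver. Of these 95 genes, 77 were tested between spheroids and preparations, and 24 were called higher and 3 lower, where 8.13% and 9.11% of all genes were. Between spheroids and livers, 25 were called higher and 6 lower of 87 tested (8.24% and 11% of all genes). Between preparations and livers, 4 were called higher and 9 lower of 77 tested (0.409% and 2.31% of all genes). Between explants and irises, 9 were called higher and 0 lower of 91 tested (6.16% and 0.316% of all genes). The lists were chosen with earlier results of these data known, so these counts beside the shares of all genes are not an independent test.

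**Figure D4:**
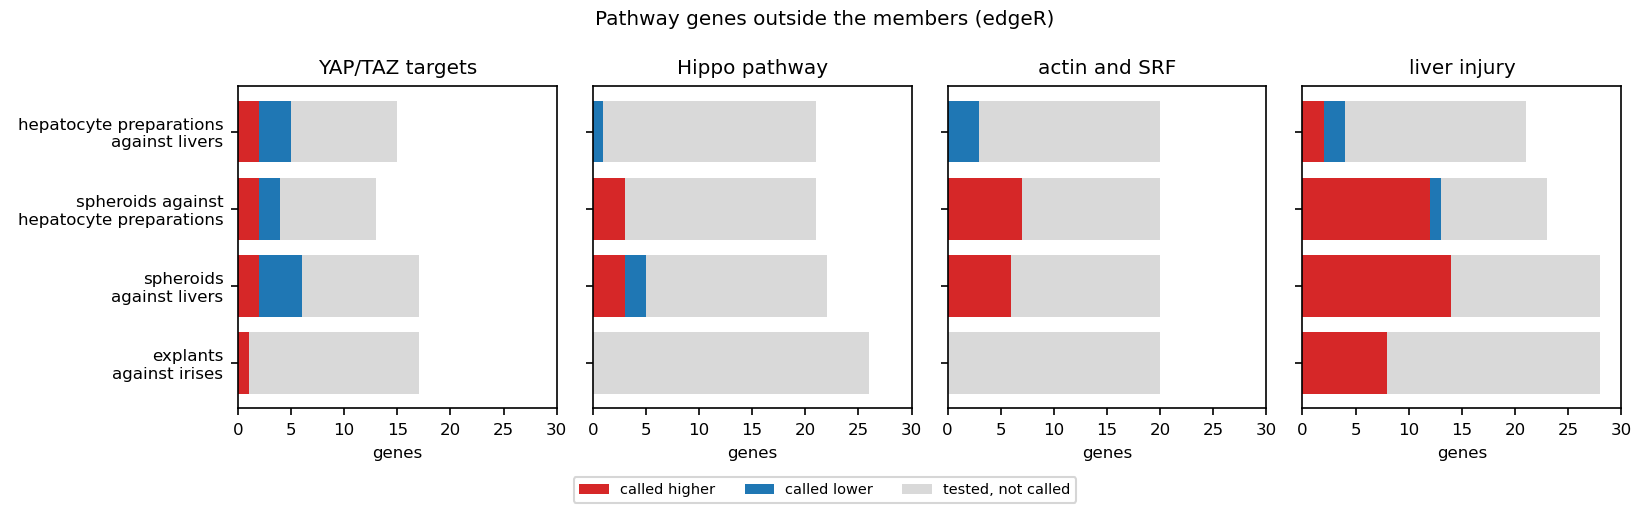
Number of genes of each of the 4 lists that edgeR called higher (red), lower (blue) or did not call (grey) among those tested, for each comparison. The liver injury list has 12 genes called higher in spheroids against preparations and 14 against livers, while the actin list has 7 and 6 and the list of YAP and TAZ targets 2 and 2.

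Between spheroids and preparations, the liver injury list had more calls than any of the other 3 lists, with 12 of its 23 tested genes higher, 1 lower and a median log2 fold change of 1.76 where that of all genes was 0.01. *Areg*, a growth factor of the EGF family, was at 31.9 and 13.9 TPM in spheroids and at 0, 0.654 and 0 TPM in preparations (edgeR adjusted p = 0.00249). *Lcn2*, a secreted siderophore-binding protein of the acute phase, rose by 4.23 (standard error 0.54, edgeR adjusted p = 0.00185) on the log2 scale, and *Lgals3*, the lectin galectin 3, by 3.81 (standard error 0.25, edgeR adjusted p = 0.000145). Of the 23 genes, 18 had a log2 fold change above 0. The only gene of the list called lower was the early response gene *Jun*, by 1.60 (edgeR adjusted p = 0.0228). It went from 222, 463 and 424 TPM in preparations to 118 and 184 TPM in spheroids. The call on *Jun* was lost without hepatocyte preparation 3 (edgeR adjusted p = 0.0678) or spheroid sample 1 (edgeR adjusted p = 0.118). Summed markers of some other liver cells were also higher in spheroids than in preparations. Macrophage markers summed to 509 and 593 TPM against 145 to 269, and stellate and fibroblast markers to 341 and 397 TPM against 140 to 207. *Dcn* made up 269 and 298 TPM of the stellate and fibroblast sums in spheroids and 107 to 153 TPM in preparations. *Lum*, *Col3a1* and *Des* of that list were also higher in both spheroid samples. *Col1a1* was lower in both, at 1.39 and 1.72 TPM against 1.81 to 2.42 TPM, and the other genes of the list overlapped. Bile duct markers summed to 115 and 415 TPM against 49.5 to 64.1. In spheroids, *Spp1*, which is also on the injury list, made up 92.3 and 350 TPM of these sums. Endothelial markers overlapped (95.9 to 121 against 65.4 to 188 TPM), as did smooth muscle markers (122 to 137 against 130 to 141 TPM). Mesothelial markers were lower (4.56 to 4.96 against 6.25 to 8.01 TPM). The part of these cells in the calls of this comparison was not tested.

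In the same comparison, 7 of 20 actin genes were higher and 0 lower, with a median of 0.89. *Tagln2*, which binds actin filaments, rose by 4.70 (standard error 0.50, edgeR adjusted p = 0.000974), from 15.1, 3.82 and 5.61 TPM to 401 and 163 TPM. *Tmsb10*, a paralog of the member *Tmsb4x*, rose by 2.81 (standard error 0.52, edgeR adjusted p = 0.00753), a call lost without spheroid sample 1 (edgeR adjusted p = 0.0602), and the filament crosslinker gene *Flna* by 2.68 (standard error 0.49, edgeR adjusted p = 0.00706). Of the Hippo genes, 3 of 21 were higher and 0 lower, with a median of 0.16. *Amot* rose by 2.18 (standard error 0.34, edgeR adjusted p = 0.00376), *Fat1*, a giant cadherin upstream of the kinases, by 2.18 (standard error 0.35, edgeR adjusted p = 0.00448), and *Rassf1*, a scaffold of the kinases, by 1.90 (standard error 0.21, edgeR adjusted p = 0.00104).

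Of the targets of YAP and TAZ, 2 were higher, 2 lower and 9 not called of 13 tested between spheroids and preparations (8.13% and 9.11% of all genes were called higher and lower). Their median was 0.61, and 8 of the 13 were above 0. *Ccn2*, formerly *Ctgf*, a matricellular protein, rose by 3.96 (standard error 0.46, edgeR adjusted p = 0.00132), from 3.67, 3.89 and 4.40 TPM in preparations to 124 and 37.4 TPM in spheroids, and livers lay between at 51.4, 10.3 and 15.4 TPM. *Nt5e*, the ectonucleotidase CD73, rose by 3.56 (standard error 0.75, edgeR adjusted p = 0.0128), a call lost without spheroid sample 2 (edgeR adjusted p = 0.0726). The growth arrest gene *Gadd45a* fell by 1.49 (edgeR adjusted p = 0.0317) and the kinase gene *Nuak2* by 1.18 (edgeR adjusted p = 0.0182), each lost under 7 of 14 alternatives. Among those alternatives, leaving out either spheroid sample, hepatocyte preparation 2 or hepatocyte preparation 3 gave edgeR adjusted p from 0.0723 to 0.165 for *Gadd45a* and from 0.0605 to 0.0751 for *Nuak2*.

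Between spheroids and livers, 14 of 28 tested injury genes were higher and 0 lower, with a median of 1.59 where that of all genes was 0.015. *Areg* rose by 5.03 (standard error 0.76, edgeR adjusted p = 0.00357), the stress factor *Atf3* by 3.17 (standard error 0.39, edgeR adjusted p = 0.0018) and the stress-induced cytokine *Gdf15* by 3.05 (standard error 0.33, edgeR adjusted p = 0.00117). *Areg* was at 1.15, 0 and 0.543 TPM in livers, so the size of its fold change rests on levels near 0. *Atf3* was at 135 and 60.9 TPM in spheroids and 15.2, 7.52 and 6.73 TPM in livers, but preparations held 15.3, 189 and 113 TPM. *Gdf15* likewise was at 40.6 and 57.4 TPM in spheroids, 4.51 to 6.05 TPM in livers and 45, 130 and 69.4 TPM in preparations. For these 2 genes the samples of spheroids and preparations overlapped, whereas for *Klf6* and *Tnfrsf12a* both spheroid samples were above every preparation.

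Of the actin genes, 6 of 20 were higher in spheroids than in livers and 0 lower. *Tagln2* rose by 2.26 (standard error 0.38, edgeR adjusted p = 0.00508), *Tpm4*, a tropomyosin, by 1.92 (standard error 0.23, edgeR adjusted p = 0.00168), and *Flna* by 1.63 (standard error 0.51, edgeR adjusted p = 0.0447). *Flna* was at 79.0 TPM in spheroid sample 1 and 17.7 TPM in sample 2, and without sample 1 its log2 fold change was 0.33 (edgeR adjusted p = 0.559). Its call was also lost without liver 2 (edgeR adjusted p = 0.15) or liver 3 (edgeR adjusted p = 0.113).

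Of the Hippo genes, 3 were higher and 2 lower of 22 tested in that comparison, with a median of −0.23, beside 8.24% and 11% of all genes. *Rassf1* rose by 1.82 (standard error 0.19, edgeR adjusted p = 0.00109), *Fat1* by 1.80 (standard error 0.35, edgeR adjusted p = 0.0092) and *Stk3*, the kinase MST2, by 1.21 (standard error 0.31, edgeR adjusted p = 0.0236). *Fat1* fell to 0.99 without spheroid sample 1, just under the limit, and the call on *Stk3* was lost without liver 2 (log2 fold change 0.96) or spheroid sample 2 (edgeR adjusted p = 0.132). *Amotl1*, a paralog of *Amotl2*, fell by 3.43 (standard error 0.50, edgeR adjusted p = 0.003), from 7.54, 4.38 and 3.70 TPM in livers to 0.698 and 0.329 TPM, and *Fat4*, another giant cadherin, fell by 3.42 (standard error 0.91, edgeR adjusted p = 0.0258), a call lost without spheroid sample 2 (edgeR adjusted p = 0.133).

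Of the targets of YAP and TAZ, 2 were higher and 4 lower of 17 tested between spheroids and livers, with a median of −0.26. *Nt5e* rose by 4.23 (standard error 0.64, edgeR adjusted p = 0.00358), from 7.37, 0.837 and 2.19 TPM to 48.4 and 89.3 TPM, and *Ccn1*, formerly *Cyr61*, a matricellular protein like *Ccn2*, rose by 2.59 (standard error 0.25, edgeR adjusted p = 0.000845). The RNA-binding protein gene *Rbms3* fell by 3.74 (edgeR adjusted p = 0.0149), the matrix protein gene *Ccdc80* by 2.36 (edgeR adjusted p = 0.0354) and the receptor tyrosine kinase gene *Axl* by 1.82 (edgeR adjusted p = 0.0123). Without spheroid sample 2 these calls were lost, at edgeR adjusted p of 0.0723, 0.0945 and 0.0619, and without sample 1 that on *Ccdc80* was lost too (edgeR adjusted p = 0.156). Stellate and fibroblast markers summed to 341 and 397 TPM in spheroids and 560 to 1539 TPM in livers, and their part was not tested.

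Between preparations and livers, 13 pathway genes were called, and 2 of them, *Jun* and *Spp1*, were called under every alternative. *Jun* rose by 3.71 (standard error 0.31, edgeR adjusted p = 0.00399) and *Spp1*, osteopontin, a gene of bile duct cells and macrophages, fell by 2.99 (standard error 0.27, edgeR adjusted p = 0.00445). The other genes called higher in preparations were *Gdf15*, by 4.03 (edgeR adjusted p = 0.011), *Ccn1*, by 2.98 (edgeR adjusted p = 0.0354), and *Gadd45a*, by 2.17 (edgeR adjusted p = 0.0393). Those called lower were *Krt19*, *Igfbp3*, *Rbms3*, *Tagln2*, *Axl*, *Vim*, *Wwc2* and *Cnn2*, with log2 fold changes from −5.31 to −1.20. The count of 13 became 14 without hepatocyte preparation 1, 3 without preparation 2, 2 without preparation 3, 6 without liver 1, 2 without liver 2 and 4 without liver 3. Bile duct markers summed to 49.5 to 64.1 TPM in preparations and 298 to 581 in livers, stellate and fibroblast markers to 140 to 207 and 560 to 1539, endothelial markers to 65.4 to 188 and 273 to 319, and macrophage markers to 145 to 269 and 511 to 801, and their part in these values was not tested.

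Between explants and irises, 8 of 28 tested injury genes and 1 of 17 YAP and TAZ targets were called higher (6.16% of all genes were), and edgeR called 0 of 26 Hippo genes and 0 of 20 actin genes. DESeq2 and limma-voom also called 0 in both lists, and 6 Hippo and 8 actin genes were under an unadjusted p of 0.05. *Krt23*, a keratin, rose by 4.46 (standard error 0.44, edgeR adjusted p = 0.000406), *Plaur*, the urokinase receptor, by 4.25 (standard error 0.74, edgeR adjusted p = 0.00667), and *Atf3* by 2.49 (standard error 0.24, edgeR adjusted p = 0.000399). *Plaur* was at 3.84 to 13.7 TPM in explants, 0.860, 0 and 0.435 TPM in irises, and 54.5 and 20.2 TPM in spheroids. *Ccn1*, the YAP target called, rose by 1.18 (standard error 0.31, edgeR adjusted p = 0.0391), and the call was lost without explant 1 or 2 or any of the irises (log2 fold change 0.97 without explant 1, and edgeR adjusted p from 0.0552 to 0.159 for the others). Limma-voom and the single fit of all 5 groups did not call *Ccn1* either. Of *Ccn2*, explants held 182 to 239 TPM and irises 165 to 184 TPM. Hepatocyte markers summed to 4933 to 7115 TPM in explants and 1588 to 1870 in irises, and macrophage markers to 668 to 2146 and 518 to 539 TPM, and their part in these calls was not tested.

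The genes whose pattern was most like that of a member were sought by Pearson's r of log2(TPM + 1) over the 16 samples, among genes with a mean of at least 5 TPM. These values are a description, since the points share groups and libraries. For *Klf6* they were *Tmem43* (r = 0.988), *Ppfibp1* (r = 0.984) and *Lztr1* (r = 0.982), and *Tmem43* had means of 23 TPM in livers, 16.8 in preparations, 141 in spheroids, 81.0 in explants and 76.5 in irises. For *Ankrd1* they were *Ctla2b* (r = 0.919), *Ets2* (r = 0.914) and *Tgm2* (r = 0.904), which like *Ankrd1* were highest in spheroids and lowest in preparations and irises. For *Yap1* they were *Brd1* (r = 0.991), *Atxn7l3b* (r = 0.988) and *Hs2st1* (r = 0.986), and for *Tmsb4x* they were *Spp1* (r = 0.990), *Cd72* (r = 0.984) and *Mmp14* (r = 0.983), all of which were highest in irises or explants and lowest in preparations or spheroids.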

How the data were processed

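Read counts per gene were deposited by the authors for 48 libraries, made per the labels and file headers with TopHat2, SAMtools and featureCounts on mm10 after duplicate reads were removed (UMI-tools dedup, by unique molecular identifier, per the study's list of software). A read over several genes was counted for each, without strand. The deposited TPM equal TPM computed here from the counts summed over the 3 technical libraries and the gene lengths of the files. The deposited signal of explants after iris subtraction served only to solve the iris share. The deposited values of explant 4 follow another form, the iris level minus the share where the formula has a product, so that formula of the methods was applied to all 5 explants. The coordinates of 5 of the 10 genes are the same in GENCODE M21.

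Counts were tested with edgeR 4.0.16 (quasi-likelihood F-test, filterByExpr, TMM, only the groups compared, Benjamini-Hochberg adjustment), since the values are counts; the methods name limma for explants against irises. Calls required both a fold change of more than 1 on the log2 scale, in either direction, and an adjusted p below 0.05. Standard errors are the absolute log2 fold change divided by the square root of F. The code was tested on simulated counts. Alternatives were DESeq2 1.42.0, limma-voom 3.58.1, RLE or library size scaling, filters of none or a minimum of 10 counts per sample, technical library a alone, a single fit of 5 groups, no fold limit, a replicate block and each sample left out. Leaving out explant 4 or using it as deposited was chosen after seeing the data. Members and lists were chosen with earlier results of these data known. Genes named are all members, the called genes with the 3 largest and 3 smallest log2 fold changes of each list and comparison, markers with their list, and the 3 genes most like *Klf6*, *Ankrd1*, *Yap1* and *Tmsb4x*.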

Additional observations from a re-analysis of the deposited data

Results flagged for a closer look

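The 5 explants were examined for a sample far from the rest in 28 sets of values, namely the TPM of each of the 10 genes, their levels after iris subtraction and the summed markers of each list. Explant 6 stood apart for *Ankrd1*, at 10.8 TPM (40 counts) where the other explants were at 3.39 to 4.37 TPM, and its gap of 0.869 of the whole range exceeded the critical value of 0.71. This was the only set so marked, and chance marks about 1 in 20. Explant 6 also had the smallest iris share (59%), the highest summed macrophage markers (2146 TPM) and the highest *Tnfrsf12a* (226 TPM) and *Tmsb4x* (444 TPM) of the explants. After iris subtraction *Ankrd1* was at 26.3 TPM in explant 6 and at 11.5 to 21.3 TPM in the others. The part of iris share and macrophages in this value was not tested.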

How the results depend on the processing

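Of 64 recounts of called pathway genes, 52 stayed within 1.5 times the reported count. The 12 that did not comprise 11 for preparations against livers and 1 for explants against irises. For preparations against livers the count of 13 was 25 with DESeq2, 2 with limma-voom, 20 by library size alone, 34 with no filter, 7 with technical library a alone and 29 in a single fit of all 5 groups. It ranged from 2 to 14 with each sample left out. The cause was not tested. Over all genes, 333 were called, and 20 with limma-voom, 165 with technical library a alone, 169 with at least 10 counts, 647 with DESeq2, 1140 in the single fit, 1205 with no filter and 8 to 448 with a sample left out. For explants against irises the count of 9 was 23 with no fold change limit, as that setting admits smaller changes, and ranged from 6 to 11 with each sample left out. Over all genes 1085 were called, and 583 with limma-voom, 644 with at least 10 counts, 1975 with no fold change limit and 583 to 1259 with a sample left out. Counts ranged from 18 to 31 for spheroids against preparations and from 22 to 35 for spheroids against livers when samples were left out, and over all genes 2492 were called for the latter, against 3894 with no fold change limit.

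Sample numbers are shared between groups, but nothing in the labels says that they mark the same animal. With a replicate block the counts were 19 for preparations against livers, 28 for spheroids against preparations, 36 for spheroids against livers and 8 for explants against irises. Deviations from group means of same-numbered samples correlated at 0.105, 0.063 and −0.043 between preparations and livers, and at 0.102 and 0.135 between spheroids and preparations. They correlated at 0.193 and 0.058 between spheroids and livers, and at 0.045 and −0.108 between explants and irises. Differently numbered samples ranged from −0.123 to 0.103, −0.135 to 0.041, −0.207 to 0.207 and −0.309 to 0.333, in the same order. With so few samples, deviations within a group offset each other, so these values cannot decide whether the numbers mark pairs. The numbers were not taken as pairs.

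Scaling by library size alone shifted the median of all genes by 0.26 for spheroids against preparations and −0.11 for preparations against livers, and raised the share of calls that were higher from 47.2% to 65.5% in the former. The fold changes of the members kept within the spread between samples in 537 of 567 recounts, and no iris-corrected mean moved beyond it in 60. For some genes the spread of iris-corrected levels was as wide as 11.4 TPM at a mean of 11.2 (*Tead1*) or 195 at 231 (*Tmsb4x*). For these genes the check could hardly mark a move. No named pathway gene changed sign in 664 recounts, and the call was lost in 106. The sign of *Lats2* between spheroids and preparations, of *Amotl2* and *Tead1* between spheroids and livers and of *Ajuba*, *Yap1*, *Wwtr1* and *Tmsb4x* between explants and irises, all close to 0, changed under at least 1 alternative, beside the sign changes given in the text for *Klf6*, *Amotl2* and *Tead1*. Median variation over technical libraries was 6.33% (*Amotl2*) to 56.3% (*Ankrd1*), and low counts limit *Ankrd1*, *Tead1* and *Ajuba* most.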
